A study of Mus musculus with 6 samples.

Results

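The 37 genes described here encode plasma proteins, the secreted proteins of blood that the liver makes: albumin and other carriers, apolipoproteins, clotting factors, protease inhibitors and complement C3. They were picked by name out of 24421 gene rows, as proteins made mainly by hepatocytes, after values of the knockout and WT libraries had been seen. The knockout-to-WT difference that helped to choose them is therefore given as a description, with no test of its own. The choice had no numeric threshold. Trf, Cp, Ttr and Itih3 are also made in the brain, and summed values are given with and without these 4 genes.

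The study compared primary neural stem cells of E13.5 mouse brain, either WT or Pml-/- (labelled PML knockout), to ask how Pml bears on their differentiation, stress tolerance and mitochondria. Pml encodes the promyelocytic leukemia protein, the scaffold of nuclear bodies. Cells of both genotypes were grown as neurospheres with epidermal growth factor and fibroblast growth factor 2 (20 ng/ml each) at 20% oxygen. They were collected on day 4 after dissociation. Each genotype had 3 libraries. The sources used here do not give the Pml allele, the part of the gene it removes, or whether replicates were separate cultures or embryos. A p-value therefore covers the spread of these 6 samples only, and that spread may be technical.

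Hepatocytes secrete most plasma proteins, and transcription of these genes in liver depends on a shared set of factors that includes HNF1, HNF4, C/EBP and FOXA proteins. Albumin and alpha-fetoprotein lie side by side and are used as markers of the mature and the fetal hepatocyte. Transthyretin is also a major product of the choroid plexus, transferrin of oligodendrocytes and ceruloplasmin of astrocytes. In a bulk library, fewer cells of a type and less RNA per cell cannot be told apart.

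Stretches of 150 bases upstream of the annotated start are shown for members that the values below turn on. Fgb, Alb and Mug1 are among the highest of their roles, and C3 is the only complement gene. Serpina1a and Serpina1b are near-identical copies, and Afp is the barely detected neighbour of Alb. Cp, a carrier with a higher mean level than Alb, is among the genes whose windows are not printed. The sequences are from RefSeq on GRCm38.p6, 5′ to 3′ on the gene's strand, and none overlaps an annotated exon. That of Serpina1b lies in an intron of a longer annotated transcript of the gene. Capitals mark matches to 3 motifs searched on both strands: the HNF1 element GTTAAT, the C/EBP palindrome TTGCNNAA and the FOXA element TGTTTNC.
Fgb (chr3:83049864-83050013, - strand): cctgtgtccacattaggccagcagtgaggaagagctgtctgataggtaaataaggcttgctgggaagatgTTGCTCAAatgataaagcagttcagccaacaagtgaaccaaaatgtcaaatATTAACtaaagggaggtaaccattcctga
Alb (chr5:90460720-90460869, + strand): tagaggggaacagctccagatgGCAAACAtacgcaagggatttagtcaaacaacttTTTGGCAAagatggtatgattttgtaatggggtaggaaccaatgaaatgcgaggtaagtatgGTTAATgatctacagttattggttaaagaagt
Mug1 (chr6:121838391-121838540, + strand): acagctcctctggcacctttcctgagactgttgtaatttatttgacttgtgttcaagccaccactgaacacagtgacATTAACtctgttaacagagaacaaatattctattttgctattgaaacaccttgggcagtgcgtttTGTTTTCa
C3 (chr17:57228137-57228286, - strand): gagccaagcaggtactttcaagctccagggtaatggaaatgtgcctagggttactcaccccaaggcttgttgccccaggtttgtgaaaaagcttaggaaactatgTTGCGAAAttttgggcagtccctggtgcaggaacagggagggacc
Serpina1b (chr12:103738190-103738339, - strand): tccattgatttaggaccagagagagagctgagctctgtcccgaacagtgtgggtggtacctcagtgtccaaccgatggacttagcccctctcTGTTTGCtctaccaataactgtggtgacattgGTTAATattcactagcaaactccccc
Serpina1a (chr12:103863620-103863769, - strand): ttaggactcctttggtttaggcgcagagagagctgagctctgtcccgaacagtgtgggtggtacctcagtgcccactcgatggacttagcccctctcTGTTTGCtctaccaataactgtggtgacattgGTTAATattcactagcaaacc
Afp (chr5:90490564-90490713, + strand): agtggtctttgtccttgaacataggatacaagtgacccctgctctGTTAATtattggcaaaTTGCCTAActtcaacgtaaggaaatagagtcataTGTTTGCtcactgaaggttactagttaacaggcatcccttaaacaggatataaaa

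All printed windows held a match, while those of Cp, Fgg, Itih4, Rbp4, Serpinc1 and F2, which are not printed, held none. The windows of Fgb, Alb and Afp each held a C/EBP match and an HNF1 match, and those of Alb and Afp also a FOXA match. Serpina1a and Serpina1b carried the same pair, a FOXA match and an HNF1 match. Over the 300-base promoters of these copies (250 bases before to 50 after the start), 91.0% of bases were identical, and Mug1 and Mug2 shared 82.0%. RefSeq promoters were found for 29 of the 37 genes, 32 promoters in all. GTTAAT occurred in 13 of these 32 (40.6%), against 7.10% of all 32851 promoters of that length. TTGCNNAA was found in 15 (46.9%, against 10.8%) and TGTTTNC in 17 (53.1%, against 20.5%). The HNF4 element CAAAGTCCA, also searched on both strands, was in 0 of 32, against 0.475% of all promoters. TTGCNNAA and TGTTTNC can share bases. A match describes letters only and is not a bound site.

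Libraries held 1775152 to 5917505 reads. Pml itself gave 36, 35 and 44 reads in WT replicates 1, 2 and 3, against 14, 23 and 5 in knockout replicates 1, 2 and 3. It was lower in every knockout library, but a 3′ tag reports on the transcript end and need not cover the removed part. The 45S pre-ribosomal RNA row, Rn45s, separated the WT libraries: it took 41.9% and 39.8% of reads in WT replicates 1 and 2, 19.6% in WT replicate 3, and 14.6% to 17.6% in the knockout (exact binomial 95% intervals, counting error only, stay at these values to within 0.1 percentage points). Neural stem cell genes were abundant throughout. The 15 listed, led by Vim, Slc1a3, Fabp7 and Sox9, summed to 6977 to 9147 CPM in WT and 8331 to 9960 in the knockout, where CPM is the usual unit of reads relative to library size, here with edgeR's scaling factors.

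Transcripts of the 37 genes were scarce in every library and lowest in the knockout. They were covered by 2993, 1978 and 1200 reads in WT replicates 1, 2 and 3; for knockout replicates 1, 2 and 3 the reads were 1187, 792 and 992. As CPM of total reads, before those factors, the values were 678 (exact binomial 95% interval 654 to 703), 1114 (1066 to 1164) and 305 (288 to 323) in WT. In the knockout they were 201 (189 to 212), 159 (148 to 170) and 177 (166 to 189). No WT library lay within the range of the knockout libraries, but the WT libraries themselves spread far more widely.

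After scaling, the summed level was 891, 1581 and 272 CPM in WT and 179, 131 and 148 CPM in the knockout. The means were 915 ± 655 and 152 ± 24.3 CPM (SD, n = 3 each), a 6.0-fold difference. WT replicate 2 was 5.80-fold above WT replicate 3, and WT replicate 3 was 1.79-fold above the knockout mean. Without Trf, Cp, Ttr and Itih3 the remaining 33 genes summed to 671, 1144 and 195 CPM in WT and 130, 86.1 and 99.6 in the knockout, a 6.36-fold difference. WT replicates 1 and 2, the libraries with the highest plasma protein levels, also had the highest Rn45s shares. As a share of the reads outside Rn45s, the 37 genes stood at 1166, 1851 and 379 CPM in WT and 243, 186 and 213 in the knockout. With that row left out of the scaling, the log2 ratio of the summed levels was -2.58, and with it -2.59. The scaling factors rest on many genes, so leaving out that row could hardly change this ratio. Whether the Rn45s share and the plasma protein levels are linked was not tested. With WT replicates 1 and 2 both left out, the log2 ratio was -0.84.

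**Figure D1:**
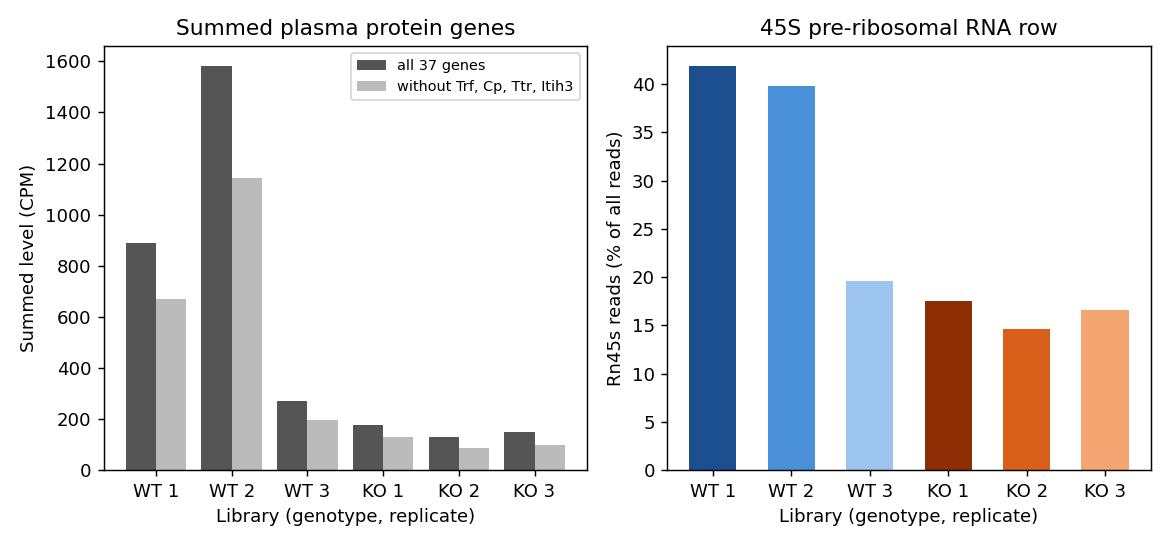
Left, the summed level of the plasma protein genes in CPM per library, for all 37 genes (dark bars) and without 4 genes also made in brain (light bars). Right, the share of reads in the Rn45s row in percent. WT 1 and WT 2 are highest in both panels, and WT 3 at 272 CPM lies nearest to the knockout libraries at 131 to 179 CPM.

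Most members had their highest levels in WT replicates 1 and 2. Of 37 genes, 31 had their highest level in WT replicate 2, 6 in WT replicate 1, and 0 in any other library. WT replicate 3 was the lowest WT library for 36. It lay above every knockout library for 23 genes, WT replicate 1 for 32 and WT replicate 2 for 36. The shares of all tested genes with these orders of libraries were not computed, so nothing particular to the members is read from these counts. For 22 of the 37 genes every knockout library lay below every WT library, and for 0 every one lay above. Among tested genes this pattern held for 19 of 28 members and for 11.3% of all 11317 genes tested. A filter for low counts let 28 of the 37 into the fit; Afp, Apoa4, Apoc4, Apoh, Mug2, Itih2, Hp, F2 and Vtn did not pass it. All 28 fitted members had negative log2 fold changes (knockout over WT), from -3.64 to -1.26 with a median of -2.45. The median over all tested genes was -0.01, with 50.3% negative. Without WT replicate 2 the members' median was -1.81, with 30 of 31 fitted members negative. With WT replicates 1 and 2 both left out it was -0.80.

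The number of members past a threshold depended on the tool. edgeR's quasi-likelihood test called 0 of 28 at an adjusted p under 0.05, with 0.00884% of all tested genes called in either direction, while 25 of the 28 were lower at an unadjusted p under 0.05, as were 9.19% of all tested genes. DESeq2 called 22 of 28 lower (1.97% of all tested genes called lower), edgeR's exact test 21 of 28 (1.86%), and limma voom 0 (0%). The authors' deposited table lists 25 of the 35 members it tested as lower at an adjusted p under 0.05, against 1.81% of its genes. WT replicate 3 decided the quasi-likelihood count: without it, 27 of 34 members were called lower, as were 7.97% of all genes. Since the members were chosen with this contrast known, nothing is read from these counts.

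**Figure D2:**
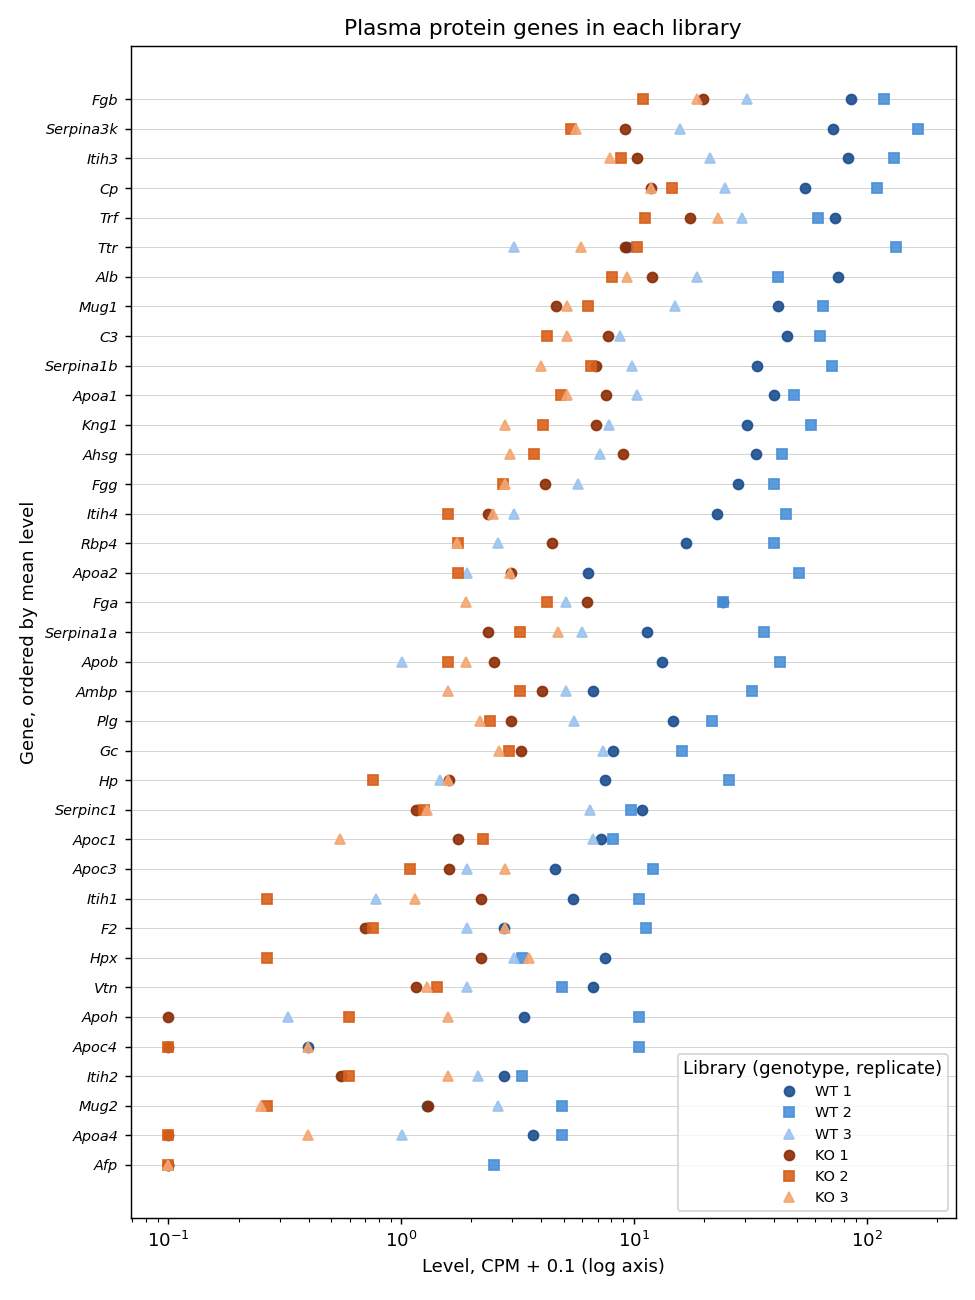
Level of each of the 37 genes (rows, ordered by mean level) in each library, as CPM plus 0.1 on a log axis; blue symbols are WT and orange symbols knockout libraries, with 1 symbol per library. WT 1 and WT 2 stand to the right for most genes, and WT 3 lies between them and the knockout libraries for 22 genes or close to the knockout. Ttr, Apob, Apoa2, Itih1, Apoh and Hp have WT 3 at or to the left of most knockout symbols, as do Apoc4 and Afp, with 0 reads in WT 3.

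Among carriers, albumin, the most abundant plasma protein, gave 253, 52 and 82 reads in WT replicates 1, 2 and 3 against 79, 48 and 62 in the knockout replicates (all reads below follow this order). Its level was 45.2 ± 28.5 CPM in WT and 9.68 ± 2.02 in the knockout (SD, n = 3 each), a log2 fold change of -2.22 (SE 0.48) without overlap between genotypes. Alb was one of the 6 genes whose highest library was WT replicate 1. Alpha-fetoprotein, its fetal relative, had 3 reads in WT replicate 2 and 0 in the other 5 libraries. A count of 0 allows up to 0.507 to 0.762 CPM in those 5, unscaled. Alb lies at chr5:90460897-90476602 (+) and Afp just downstream at chr5:90490737-90508907 (+), and both windows printed above hold HNF1, C/EBP and FOXA matches.

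The vitamin D-binding protein gene Gc gave 27, 20 and 32 reads in WT against 21, 17 and 17 in the knockout. It had a narrow WT spread for this group, 10.4 ± 4.83 CPM against 2.83 ± 0.31, and WT replicate 3 was 2.56-fold above the knockout mean. Transthyretin, which carries thyroxine and holds retinol-binding protein in plasma, owed most of its WT level to 1 library, as did Apoa2 below. Ttr gave 31, 167 and 13 reads in WT against 60, 62 and 39 in the knockout. In CPM the WT libraries were 9.23, 133 and 2.95 and the knockout libraries 9.03, 10.2 and 5.82, so that the genotypes overlapped and WT replicate 2 alone stood out. Without it the log2 fold change turned from -2.45 (SE 1.07) to 0.50. Of 15 choroid plexus markers, Kl, Folr1, Kcnj13 and Slc13a4 had 0 reads everywhere. Enpp2, also made by other cells, was the highest at 58.8 ± 5.06 CPM in WT and 106 ± 42.4 in the knockout, and Otx2 had 20.5 ± 4.61 and 20.6 ± 5.79. Aqp1 and Prlr followed with 6.32 and 6.02 CPM in WT against 0.764 and 0.963. All 15 summed to 79.4 to 110 CPM in WT and 85.8 to 160 in the knockout, and their part in the values of Ttr was not tested. Rbp4, the retinol carrier that travels with transthyretin, gave 56, 50 and 11 reads against 29, 10 and 11, and the genotypes overlapped.

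Transferrin, the iron carrier, was among the higher members in every library, with 245, 77 and 128 reads in WT against 115, 67 and 154 in the knockout. Its log2 fold change of -1.66 (SE 0.41) was smaller in size than the members' median of -2.45, at 54.5 ± 22.8 against 17.1 ± 5.96 CPM. Ceruloplasmin, a copper-binding ferroxidase, gave 183, 139 and 108 reads against 78, 88 and 79 (63.4 ± 44.0 against 12.7 ± 1.59 CPM). Trf and Cp did not overlap between genotypes. Hemopexin, which binds free heme, showed the smallest fitted difference of the group. Hpx gave 25, 4 and 13 reads against 14, 1 and 23, with overlap and a log2 fold change of -1.26 (SE 0.85). Haptoglobin, which binds free hemoglobin, gave 25, 32 and 6 reads against 10, 4 and 10, and Ambp, the precursor of alpha-1-microglobulin and bikunin, 22, 40 and 22 against 26, 19 and 10. Levels of Hp overlapped and those of Ambp did not, since WT replicate 3 had 4.99 CPM of Ambp and the highest knockout library 3.91. In this role group of 10 genes, 5 did not overlap, a pattern that 11.3% of all tested genes show. That share applies to the role groups below too, although role groups include members that failed the filter. The sum of this group was 273 ± 187 CPM in WT and 59.2 ± 6.53 in the knockout, a 4.61-fold difference.

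Apolipoprotein genes were led by Apoa1, the main protein of high-density lipoprotein, with 134, 61 and 45 reads in WT against 50, 29 and 34 in the knockout. Its level was 33.0 ± 20.2 against 5.79 ± 1.51 CPM, without overlap. Apoa2, its partner on the same particle, was carried by 1 library: reads were 21, 64 and 8 against 19, 10 and 19, and WT replicate 2 reached 51.2 CPM while WT replicate 3 had 1.82. Apob, the large structural protein of very low- and low-density lipoprotein, gave 44, 53 and 4 reads against 16, 9 and 12, high in WT replicates 1 and 2. Its WT levels of 13.1, 42.4 and 0.908 CPM enclosed the knockout levels of 1.48 to 2.41.

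Apoc1, a small exchangeable apolipoprotein, had the most even WT levels of all fitted members. Its reads were 24, 10 and 29 against 11, 13 and 3, which is 7.24 ± 0.71 CPM in WT and 1.42 ± 0.87 in the knockout, and the highest WT library was 1.21-fold above the lowest. Apoc3, an inhibitor of lipoprotein lipase, gave 15, 15 and 8 reads against 10, 6 and 18, with overlap. The remaining apolipoproteins were near the detection limit. Apoa4 gave 12, 6 and 4 reads against 0, 0 and 2, Apoc4 1, 13 and 0 against 0, 0 and 2, and Apoh, beta-2-glycoprotein I, 11, 13 and 1 against 0, 3 and 10. Of these, Apoa4 alone did not overlap. All 8 genes summed to 96.1 ± 84.2 CPM in WT and 14.1 ± 2.30 in the knockout, a 6.80-fold difference, with 3 of 8 not overlapping. Apoa1, Apoc3 and Apoa4 lie together at chr9:46228580-46230466 (+), chr9:46232933-46235636 (-) and chr9:46240696-46243459 (+), and of these neighbours Apoc3 overlapped while the others did not.

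The fibrinogen genes encode the 3 chains of the clot-forming protein and also lie together, Fgg at chr3:83007724-83015049 (+), Fga at chr3:83026076-83033627 (+) and Fgb at chr3:83040141-83049863 (-). Fgb had the highest mean level of all 37 genes. Its reads were 289, 149 and 135 in WT and 131, 66 and 124 in the knockout, or 78.6 ± 44.7 against 16.4 ± 4.78 CPM, a log2 fold change of -2.24 (SE 0.48) without overlap. Fgg gave 94, 50 and 25 reads against 27, 16 and 18, and Fga 81, 30 and 22 against 41, 25 and 12. Fgg did not overlap (24.5 ± 17.4 against 3.13 ± 0.81 CPM). For Fga, knockout replicate 1 at 6.17 CPM lay above WT replicate 3 at 4.99.

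Antithrombin, the main inhibitor of thrombin, had close levels within both genotypes, but from few reads. Serpinc1 gave 36, 12 and 28 reads against 7, 7 and 8, at 8.89 ± 2.26 CPM in WT and 1.13 ± 0.07 in the knockout. Counting error at so few reads is larger than this knockout SD, so nothing is read from its small size. WT replicate 3 was 5.61-fold above the knockout mean for Serpinc1 and 4.65-fold for Apoc1, while the median over the 28 fitted members was 1.74-fold. Plasminogen, the precursor of the clot-dissolving protease, gave 49, 27 and 24 reads against 19, 14 and 14 without overlap. Kng1, kininogen, gave 103, 72 and 34 against 45, 24 and 18 and also did not overlap. Vitronectin and prothrombin were sparse, with 22, 6 and 8 against 7, 8 and 8 for Vtn and 9, 14 and 8 against 4, 4 and 18 for F2. Vtn did not overlap in CPM and F2 did. The 8 genes of clotting, fibrinolysis and kinin release summed to 185 ± 113 CPM in WT and 34.0 ± 7.69 in the knockout, 5.44-fold apart, with 6 of 8 not overlapping.

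Protease inhibitors showed the widest separation, 321 ± 247 CPM in WT against 39.4 ± 7.19 in the knockout, an 8.16-fold difference over 10 genes of which 7 did not overlap; whether role groups differ from each other was not tested. Serpina3k, a rodent relative of antichymotrypsin at chr12:104338486-104346144 (+), had the largest log2 fold change of all fitted members, -3.64 (SE 0.72). It gave 240, 208 and 69 reads in WT against 60, 32 and 37 in the knockout, or 84.5 ± 76.1 against 6.61 ± 2.10 CPM. Serpina1b and Serpina1a encode copies of alpha-1-antitrypsin, the elastase inhibitor. Serpina1b gave 113, 89 and 43 reads against 45, 39 and 26, and Serpina1a 38, 45 and 26 against 15, 19 and 31, neither with overlap. The last 300 bases of their longest transcripts are 96.3% identical, and 3′ tags lie near that end, so reads may be split between them or with Serpina1c, Serpina1d and Serpina1e (95.3% for Serpina1a with Serpina1c), and their separate values are uncertain.

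Murinoglobulin 1, a single-chain relative of alpha-2-macroglobulin, gave 139, 81 and 66 reads against 30, 38 and 34. Mug1 was at 40.4 ± 24.9 CPM in WT and 5.28 ± 0.90 in the knockout, with a log2 fold change of -2.90 (SE 0.51). Its copy Mug2 gave 4, 6 and 11 reads against 8, 1 and 1, with overlap, and is 92.7% identical to Mug1 over the last 300 bases, so the split between them is uncertain too. Ahsg, fetuin A, which keeps calcium phosphate in solution, gave 112, 54 and 31 reads against 59, 22 and 19, and knockout replicate 1 at 8.88 CPM lay above WT replicate 3 at 7.04.

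The inter-alpha-trypsin inhibitor heavy chains, some of which bind hyaluronan in the extracellular matrix, differed widely in level. Itih3, also made in brain, gave 280, 164 and 93 reads against 68, 53 and 52 and reached 78.5 ± 55.2 CPM in WT and 8.91 ± 1.25 in the knockout. Itih4 gave 76, 56 and 13 reads against 15, 9 and 16, with a log2 fold change of -3.44 (SE 0.81). Itih3 and Itih4 did not overlap between genotypes, although WT replicate 3 had 2.95 CPM of Itih4 against 2.39 in the highest knockout library. Itih1 and Itih2, the chains joined to bikunin in the classical inhibitor, were sparse, with 18, 13 and 3 against 14, 1 and 7 for Itih1 and 9, 4 and 9 against 3, 3 and 10 for Itih2. Itih1 overlapped and Itih2 did not. C3, the central complement component, gave 152, 79 and 38 reads against 51, 25 and 34. Its level of 39.0 ± 27.8 CPM in WT and 5.62 ± 1.84 in the knockout did not overlap, though WT replicate 3 at 8.63 CPM was close to knockout replicate 1 at 7.67.

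The order of mean levels over all 6 libraries ran Fgb, Serpina3k, Itih3, Cp, Trf, Ttr, Alb, Mug1, C3, Serpina1b. Tags are counted once per transcript end, so these counts are not scaled by length. Neighbours in this order did not differ beyond their spread: in WT, Fgb at 78.6 ± 44.7 and Itih3 at 78.5 ± 55.2 CPM were level, and in the knockout Trf at 17.1 ± 5.96 and Fgb at 16.4 ± 4.78. The 10 genes with the highest mean held 63.2% of all plasma protein reads.

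The rank order of the genes was similar between libraries, while the shares of single genes varied to different degrees. Across the 37 genes, Spearman's rho of levels between pairs of libraries was 0.84 to 0.94 for the 3 knockout pairs, 0.68 to 0.88 for the 3 WT pairs and 0.77 to 0.91 for the 9 pairs across genotypes. These describe genes, which are not independent replicates, and libraries share the high and low genes. Fgb took 7.53% to 12.5% of the group's reads, Apoa1 3.08% to 4.48% and Plg 1.37% to 2.00%. Wider ranges were seen for Trf at 3.89% to 15.5%, Alb at 2.63% to 8.45% and Apob at 0.333% to 2.68%. All 37 genes together ranged 7.01-fold as a share of total reads. Serpina3k took 3.73% to 5.05% in the knockout and 5.75% to 10.5% in WT, so its share did not overlap either. The same held for Itih3, at 5.24% to 6.69% in the knockout and 7.75% to 9.36% in WT. It also held for Apoa4, which had few reads. Ttr ranged from 1.04% of the group's reads in WT replicate 1 (exact binomial 95% interval 0.705 to 1.47) to 8.44% in WT replicate 2 (7.25 to 9.76), and was 3.93% to 7.83% in the knockout.

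**Figure D3:**
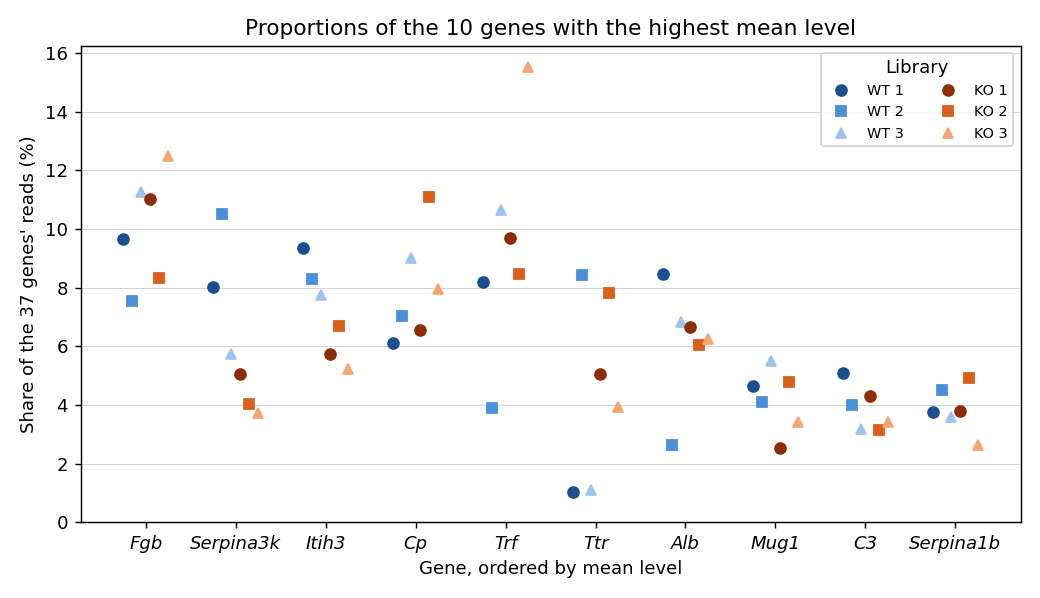
Share of the 37 genes' reads, in percent, taken by each of the 10 genes with the highest mean level, with 1 symbol per library (blue WT, orange knockout). Fgb stays between 7.53% and 12.5%, the WT symbols of Serpina3k and of Itih3 lie above the knockout symbols of the same gene, and Ttr ranges from 1.04% to 8.44%.

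How closely a gene tracked the group was described by Pearson's r between its log2 level and the log2 summed level over the 6 libraries. Serpina3k at 0.999 and Fgg, Itih3 and Plg at 0.99 were closest, and Ttr at 0.71 and Hpx at 0.61 were farthest. Each member is itself part of the sum. Of the 28 fitted members 23 reached 0.9, and so did 8.78% of all tested genes. The 10 tested genes outside all lists with the highest r were Cyp2d13, Akt2, Rbm8a, Ehd1, Fbxw8, Adh6-ps1, Gmpr, Txn2, Agpat6 and Lurap1, at 0.99 or above. Cyp2d13, a cytochrome P450 gene, gave 54, 36 and 16 reads in WT against 14, 6 and 10 in the knockout. Rbm8a, a subunit of the exon junction complex, gave 1109, 574 and 888 against 1159, 955 and 1109, at 330 ± 129 against 166 ± 8.45 CPM. The exon junction subunit thus followed the group's order of libraries at a smaller fold.

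Other liver genes were taken from lists that leave out the 37 but share some genes with each other. Like the members, the lists were chosen with earlier results of these data known. Their values and counts of called genes are therefore a description, and nothing is read from the counts. Of 68 further liver-made plasma proteins in the table, 26 were tested, 22 with negative and 4 with positive log2 fold changes and a median of -2.28. edgeR's quasi-likelihood test called 0 in either direction, with 19 lower and 0 higher at an unadjusted p under 0.05 (9.19% of all tested genes were lower at that level). DESeq2 called 16 lower and 0 higher (1.97% of all lower), edgeR's exact test 16 lower (1.86%) and limma voom 0 (0%). Apoe, an apolipoprotein also made by glia, was the highest of them and overlapped, with 1619, 1876 and 722 reads against 1663, 5709 and 5281. All 68 genes, led by Apoe, summed to 943, 2339 and 353 CPM in WT and 421, 1095 and 951 in the knockout. These sums overlapped, with WT replicate 3 below every knockout library. Pros1, protein S, was higher in every knockout library, 53.3 ± 1.17 against 36.7 ± 6.90 CPM. Pzp, an alpha-macroglobulin, was lower in each, 10.9 ± 0.50 against 70.2 ± 58.3 CPM, as was Serpina1c, 6.46 ± 0.97 against 26.1 ± 21.8. Apoc2, Serpina7, A1bg, Cfi and Rbp2 had 0 reads everywhere.

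Genes of hepatocytes that are not secreted were highest in the same WT libraries. The 45 intracellular and membrane genes summed to 474, 718 and 156 CPM in WT and 128, 116 and 116 in the knockout. Of 21 tested, 20 had negative log2 fold changes with a median of -2.54, and edgeR's quasi-likelihood test called 0, with 17 lower and 0 higher at an unadjusted p under 0.05 (against 9.19%). DESeq2 and edgeR's exact test each called 12 lower (against 1.97% and 1.86%), and limma voom 0. Aldh1l1, a folate enzyme of liver and astrocytes, differed by less than its spread, at 51.5 CPM in WT and 51.8 in the knockout, with 219, 71 and 143 reads against 271, 329 and 405. Mat1a, the liver S-adenosylmethionine synthase, gave 167, 215 and 75 reads against 99, 48 and 38. Slco1b2, a hepatocyte uptake transporter, gave 118, 72 and 39 against 27, 42 and 22, and Adh1 91, 77 and 18 against 41, 12 and 16. Ass1 and Ugt1a1 had 0 reads in all libraries.

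All 10 tested genes of 20 liver transcription factors had negative log2 fold changes, with a median of -1.36 and 138, 265 and 68.5 CPM in WT against 56.4, 48.6 and 46.7 in the knockout. edgeR's quasi-likelihood test called 0, with 6 lower at an unadjusted p under 0.05, DESeq2 2, edgeR's exact test 3 and limma voom 0, beside the same shares of all genes (9.19%, 1.97%, 1.86% and 0%). Ppara, Onecut2, Rxra and Prox1 were the highest of them, and neural cells express several of these. Late-onset liver genes (20) summed to 98.5, 130 and 53.3 CPM in WT against 44.2, 28.4 and 34.9. All 6 tested were negative. The quasi-likelihood test called 0, with 4 lower at an unadjusted p under 0.05 (against 9.19% of all tested genes). DESeq2 and edgeR's exact test called 2 each (against 1.97% and 1.86%) and limma voom 0 (0%). Of these 6, Serpina1e, G6pc, Tdo2 and Cyp2e1 are already counted in the plasma protein or hepatocyte lists. Of the highest, Serpina1e, Ces3a and G6pc were 5.31-, 5.94- and 7.41-fold higher on average in WT, while Car3 was level at 22.1 ± 7.28 against 20.6 ± 3.83 CPM. Fetal liver and hepatoblast genes (11) summed to 423, 425 and 387 CPM in WT and 493, 426 and 424 in the knockout, a sum held mostly by Mest, Igf2bp3 and H19, with Gpc3 next, which other embryonic cells express too. Lin28b had 0 reads everywhere. Of 6 tested, 3 had negative and 3 positive log2 fold changes (median -0.02). The quasi-likelihood test called 0, with 1 lower at an unadjusted p under 0.05 (against 9.19% of all tested genes). DESeq2 and edgeR's exact test called 1 each (against 1.97% and 1.86%) and limma voom 0 (0%). With 6 genes tested, nothing is read from this count of 1. The gene counted there, named after its values were seen, was Krt18, a keratin of simple epithelia. It had 16, 13 and 12 reads against 0, 3 and 2 and no overlap.

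Markers of other cells of the fetal liver, and of other tissues, differed in level. Of 16 erythroid genes 11 had 0 reads everywhere. These were all globins listed (Hba-a1, Hba-a2, Hbb-bs, Hbb-bt, Hbb-bh1, Hbb-y and Hba-x), Slc4a1, Rhag, Tspo2 and Hemgn. Whether reads shared by near-identical globin copies went uncounted was not tested. Klf1, Epor and Alas2 each had at most 5 reads in a library. The 15 macrophage and Kupffer cell genes summed to 7.14, 35.2 and 6.58 CPM in WT and 3.01, 3.63 and 0.895 in the knockout. Csf1r gave 21 reads in WT replicate 2 and 0 in the other WT libraries. Ptprc, Cd68 and C1qa were next, at up to 15 reads in a library, and Vsig4 and Adgre1 had 0 everywhere. Endothelial genes (10) summed to 7.04 to 21.6 CPM in WT and 5.94 to 14.0 in the knockout, led by Egfl7, Kdr, Stab2 and Pecam1, with Cdh5, Tek, Emcn, Cldn5 and Lyve1 at 0. Yolk sac genes (12) summed to 18.2, 34.4 and 19.5 CPM against 15.6, 15.8 and 15.8, with Gata4, Spink1 and Cdx2 at 0. Dab2 was higher in every knockout library (9.53 ± 1.63 against 6.09 ± 1.19 CPM), Foxa2 lower in each (1.23 ± 0.10 against 6.94 ± 5.12), and Lrp2 and Amn followed. Meningeal genes (10) summed to 125, 153 and 92.6 against 87.1, 92.7 and 81.7, with Lum at 0. They included genes as high as the leading plasma proteins: Ptgds, also made by glia, stood at 69.4 ± 33.1 CPM (WT) and 29.4 ± 5.51 (knockout), and Pdgfra, also a marker of glial progenitors, 38.1 ± 12.5 and 45.9 ± 13.2. Foxc1 and Col1a1 followed. The part of hepatocyte, macrophage, yolk sac and meningeal transcripts in the plasma protein difference was not tested.

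**Figure D4:**
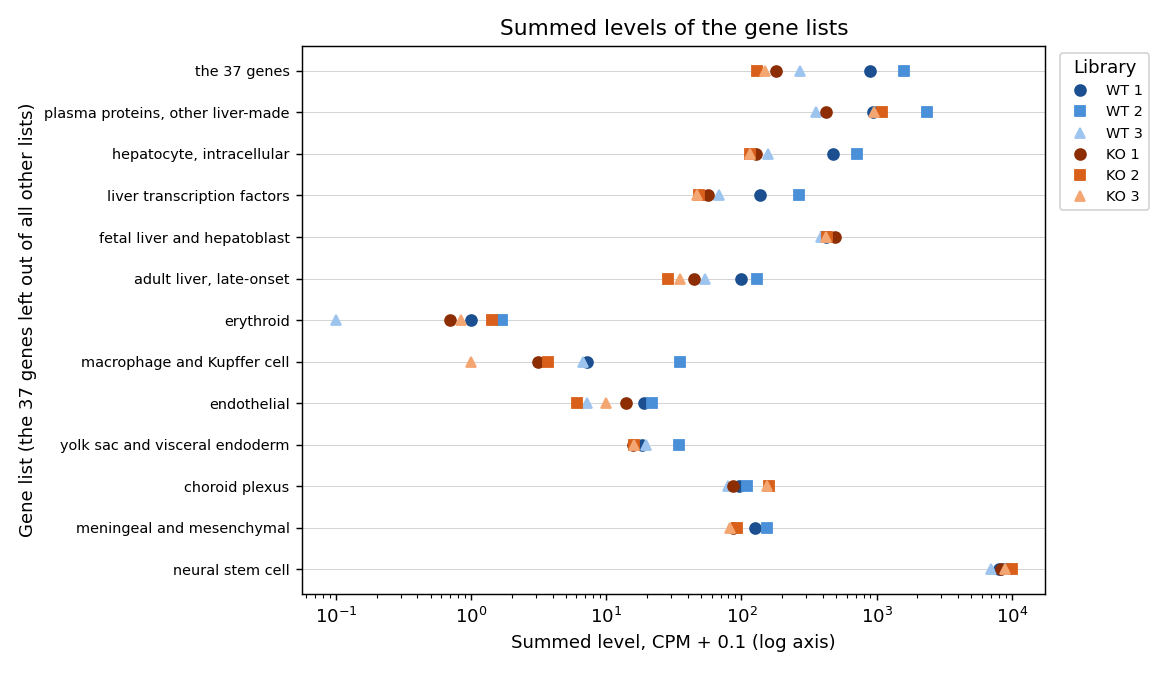
Summed level of each gene list (rows; the 37 genes are left out of the other lists) per library, as CPM plus 0.1 on a log axis, with blue symbols for WT and orange for knockout libraries. The 37 genes and the hepatocyte list both show WT 1 and WT 2 to the right of the other libraries, while neural stem cell and fetal liver symbols lie close together.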

How the data were processed

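RNA of 3 WT and 3 Pml knockout neurosphere samples was read with a forward 3′ tag kit, per the labels' protocols. For all samples these give a minimum RNA integrity number of 7 and 20 to 24 PCR cycles. The submitters' processing notes name the tools FastQC, HISAT2, HTSeq and edgeR and the build mm10. Their versions, the annotation and the strand setting were not found in these notes. The counts the authors deposited are whole reads per gene symbol, not normalized. The deposited table also holds the authors' log2 fold changes and p-values, per the file headers, used only where named as theirs. Normalized columns of samples left unused numbered 6.

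Counts were fitted in R 4.3.3 with edgeR 4.0.16 (default filter with a count minimum of 10 and total of 15, trimmed mean of M values, robust quasi-likelihood test of knockout against WT, Benjamini-Hochberg adjustment over 11317 genes, threshold 0.05). The standard error is the fold change over the square root of F. The fit was tested on simulated data. Alternatives used DESeq2 1.42.0, limma 3.58.1 (voom), edgeR's exact test, other scalings and filters, the replicate number as a block, and libraries left out. Pearson's r used log2(CPM + 1). Coordinates are GENCODE M21 on GRCm38 (mm10).

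Members and gene lists were chosen with earlier results of these data known. Reads are given for each member with at least 10 reads in a library. Of other lists the 4 genes with the highest mean, and markers at 0, are named, except 1 that is not reported here. The 10 nearest genes were ranked by r. Role groups were formed after the values were seen. Without a known strand setting, overlapping genes cannot be told apart. Reads shared by near-identical or overlapping genes may go uncounted, so a count of 0 for such genes need not mean absence. Intervals cover counting error only.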

Additional observations from a re-analysis of the deposited data

How the results depend on the processing

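The quasi-likelihood test called 1 gene. With DESeq2 size factors, library totals, limma voom or the Rn45s row removed it was 0, with no count filter 3, with DESeq2 328 (105 higher, 223 lower) and with edgeR's exact test 359 (148 higher, 211 lower). Leaving out 1 library at a time gave 0 to 1526, the highest without WT replicate 3 (589 higher, 937 lower), and leaving out WT replicates 1 and 2 together gave 142 (91 higher, 51 lower, 0 members); that WT arm is 1 library, assumed to vary like the knockout libraries. Same-numbered samples deviated together with correlations of 0.004, 0.08 and 0.19, so the numbers were not taken as pairs; with the replicate block 2 genes were called and the members' median was -2.26. That median ran from -2.89 to -1.81 with 1 library left out. Without WT replicates 1 and 2 the median was -0.80, the log2 ratio of summed levels -0.84 and, without the 4 genes also made in brain, -0.89. Library totals moved the median of all genes to 0.43 and that of the members to -1.88. Genes whose genotypes did not overlap numbered 22 to 31 of 37 over all settings, and the 37 include members that were not tested. The share of all tested genes with that pattern was lowest at 3.83% (library totals). It was 24.0% without WT replicate 3 (31 members) and 31.9% without WT replicates 1 and 2 (23 members, with 2 others above). Of 476 member log2 fold changes under alternatives, 438 moved by less than 1 SD between replicates, 32 by more and 6 changed sign: Ttr to 0.50 without WT replicate 2 (single libraries left out gave Ttr -3.01 to 0.50). The other 5, with both WT replicates 1 and 2 gone, were Ttr to 1.49, Apob to 1.04, Itih1 to 0.69, Apoa2 to 0.43 and Rbp4 to 0.031. The non-overlap counts under other settings, upper quartile scaling of the sums, and the median over the 20 members with at least 10 reads in every library (-2.45) were added after seeing the data. Depth limits Afp, Apoa4, Apoc4, Apoh and Mug2 most.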
